A study of Mus musculus with 8 samples.

Results

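Peak lists of 5-hydroxymethylcytosine (5hmC) were compared between mouse induced pluripotent stem cells (iPSC) and OSNK D5, fibroblast cultures on day 5 of reprogramming with the OSNK factors. The comparison holds every peak of both lists, 54938 in iPSC and 92762 at OSNK D5, which is 147700 of the 684512 peaks of the 8 libraries in the series. A peak was called shared when it overlapped a peak of the other list by at least 1 bp, and iPSC-specific or OSNK D5-specific otherwise. The lists of the starting mouse embryonic fibroblasts (MEF), of OSNK D1 and D3, and of OySyNyK D1, D3 and D5 were used to look for these peaks at earlier stages and with the other method. OSNK is known from the study as Oct4, Sox2, Nanog and Klf4, and OySyNyK as the same set with Oct4, Sox2 and Nanog each joined to the activation domain of YAP. D is read as day.

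The groups differ in more than stage. The iPSC sample carries the names of the OySyNyK factors in its title, whereas the day 5 sample is labelled OSNK, so stage and method cannot be told apart in this comparison. Per the labels' protocols the fibroblasts were OG2-MEFs, which carry an Oct4-GFP reporter, the medium for iPSC generation held vitamin C and LIF, and iPSCs were kept on mitomycin C-treated MEF feeder cells. The share of feeder DNA in the iPSC library was not tested. Every group had 1 library, so no test between conditions was possible and no p-value is given. Intervals are exact (Clopper-Pearson) 95% intervals, which cover counting error only. Sequencing depth was unknown, and a peak missing from a list is not shown to lack 5hmC. Peaks were not assigned to genes, so the cell identities were not checked against marker loci.

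5hmC is made from 5-methylcytosine by the TET enzymes, and can be an intermediate on the way to unmethylated cytosine as well as a lasting mark. In differentiated and pluripotent cells it is known at enhancers and within gene bodies, and its distribution differs between cell types. Reprogramming of fibroblasts therefore involves both placing 5hmC at sites of the pluripotent state and removing it from sites of the fibroblast and of the transitional cells. The chemical capture used here glucosylates 5hmC with an azide sugar and pulls it down through biotin, which gives enriched regions and not a level per base.

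Most peaks of either list had no counterpart in the other. In iPSC, 37986 of 54938 peaks were iPSC-specific, which is 69.1% of the list (95% interval 68.8 to 69.5), and 16952 were shared. At OSNK D5, 75935 of 92762 peaks were OSNK D5-specific, which is 81.9% (95% interval 81.6 to 82.1), and 16827 were shared. These shares, 69.1% and 81.9%, are the background against which single chromosomes and peak classes were read. The lists covered 41.1 Mb in iPSC and 70.2 Mb at OSNK D5. Both covered the same 10.8 Mb, which is 26.4% of the iPSC cover and 15.5% of the OSNK D5 cover.

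Few peaks lay near the limit of the overlap rule. Among shared peaks, 233 of iPSC and 258 of OSNK D5 were overlapped by under 50 bp, and among specific peaks, 298 of iPSC and 384 of OSNK D5 had a gap under 50 bp to the other list. The median shared iPSC peak was overlapped over 91.7% of its length and the median shared OSNK D5 peak over 75.3%. Specific peaks were often far from the other list. The median gap was 6115 bp for iPSC-specific peaks and 9614 bp for OSNK D5-specific peaks, and 14.4% and 10.3% of them lay within 1 kb of a peak of the other list. Beyond 50 kb from any peak of the other list lay 3009 iPSC-specific peaks (7.92%) and 11905 OSNK D5-specific peaks (15.7%). The iPSC list is the shorter one, which leaves larger gaps between its peaks.

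The comparison was repeated with equal numbers of peaks. The 54938 best-scoring OSNK D5 peaks, all with a score of at least 72.49, were set against the whole iPSC list. Of the iPSC peaks, 42258 were then iPSC-specific, or 76.9% (95% interval 76.6 to 77.3), and of the OSNK D5 peaks 42592 were OSNK D5-specific, or 77.5% (95% interval 77.2 to 77.9). The 37824 OSNK D5 peaks left out were the only partners of 4272 iPSC peaks. With equal numbers of peaks all set to 500 bp, the shares were 80.2% in iPSC and 80.3% at OSNK D5. Because most shared peaks pair 1 to 1, lists of equal length give nearly equal shares on both sides, and the closeness of the values is not a result. More than 3 in 4 peaks of each list had no counterpart in these settings.

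Specific peaks were narrower and scored lower than shared peaks in both lists. The score is the authors' value for each peak, in MACS -10 times the log10 of its p-value, and serves here to describe and rank peaks within a list, since it also depends on depth. Median width was 626 bp for iPSC-specific and 682 bp for shared iPSC peaks. At OSNK D5 it was 623 bp for specific and 807 bp for shared peaks. Median score was 68.9 for iPSC-specific and 77.2 for shared iPSC peaks, and 77.6 and 104.9 for specific and shared peaks of OSNK D5. Peaks of at least 2 kb made up 0.982% of the iPSC-specific and 3.04% of the shared iPSC peaks, and 0.881% of the OSNK D5-specific and 4.96% of the shared OSNK D5 peaks. The order of the medians held in all alternatives that gave them, 5 for width and 7 for score, and a wide peak can touch another by its length alone.

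High score did not remove the difference between the lists. In the top decile of iPSC peaks by score, from 141.51 upward, 54.3% were without an OSNK D5 peak (95% interval 52.9 to 55.6), against 75.01% in the lowest decile. In the top decile of OSNK D5 peaks, from 189.15 upward, 60.2% were without an iPSC peak (95% interval 59.2 to 61.2), against 89.6% in the lowest decile. By width, the widest decile of iPSC peaks held 56.1% specific peaks and the narrowest 76.0%. The widest decile of OSNK D5 peaks held 61.3% and the narrowest 93.4%. The share at OSNK D5 was lower in each successive decile of either measure, whereas that of iPSC by score differed little over the 3 lowest deciles.

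**Figure D1:**
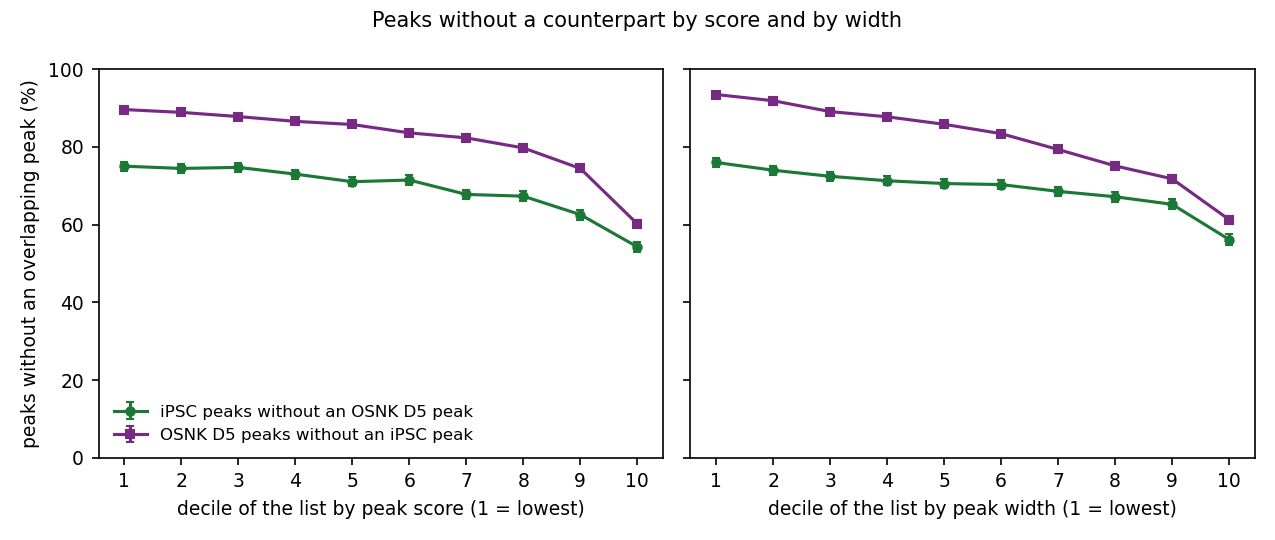
Percent of peaks without an overlapping peak of the other list (y axis), by decile of the list ranked by score (left) or width (right), for iPSC (circles) and OSNK D5 (squares), with exact 95% intervals of counting error. Even in the top decile by score, 54.3% of iPSC peaks and 60.2% of OSNK D5 peaks had no counterpart.

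Where the lists shared a peak, the OSNK D5 peak was usually the wider one. In 15191 pairs, 1 iPSC peak touched 1 OSNK D5 peak and neither touched another. Median width in these pairs was 668 bp in iPSC and 793 bp at OSNK D5, and the iPSC peak was the wider one in 34.6% of pairs. Across pairs, which are not independent replicates and share their libraries, Spearman's rho was 0.44 for the widths and 0.09 for the scores, so that the rank of a shared peak by score in one list was almost unrelated to its rank in the other.

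Peaks still to be gained after day 5 had rarely been called earlier in the OSNK course. Of the 37986 iPSC-specific peaks, 11.8% overlapped a MEF peak (95% interval 11.4 to 12.1), 8.08% an OSNK D1 peak (7.81 to 8.36) and 7.66% an OSNK D3 peak (7.39 to 7.93). In none of these 3 lists were 31144 of them, or 82.0% (95% interval 81.6 to 82.4). Over the whole iPSC list, 61.8% of peaks were in none of the 3, and the choice of peaks absent at OSNK D5 also lowers presence in the related lists. Of the shared iPSC peaks, in contrast, 44.1% were present in MEF, 60.5% at OSNK D1 and 76.5% at OSNK D3, and 16.6% were in none of them. Among equal numbers of peaks, 84.6% of iPSC-specific peaks were in none of the 3.

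A small class of iPSC peaks had been called in MEF and was missing on all 3 days of OSNK. These 2270 peaks made up 5.98% of the iPSC-specific peaks. Over the whole iPSC list, 4.89% of peaks were in MEF and at neither OSNK D1 nor D3. Median width of the 2270 peaks was 710 bp and median score 79.1, against 618 bp and 68.2 for the iPSC-specific peaks found in none of the earlier lists. Another 1087 peaks were in MEF and at OSNK D1 and missing at D3 and D5 (2.86% of the class, against 2.71% of the list). At OSNK D3 only were 1273 peaks (3.35%, against 7.45%). The 879 iPSC-specific peaks called in MEF and at both OSNK D1 and D3 were missing at D5 alone, and made up 12.8% of the iPSC peaks with that history (95% interval 12.005 to 13.6).

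The iPSC-specific peaks were also looked for with the other method. The OySyNyK lists overlapped 10.9% of iPSC-specific peaks at D1, 16.2% at D3 and 21.6% at D5 (95% interval 21.1 to 22.0). Together they reached 30.5%, and 24206 iPSC-specific peaks, or 63.7% (95% interval 63.2 to 64.2), were in none of the other 6 lists. Of the shared iPSC peaks, 819 of 16952 (4.83%) were in none of the other 6 lists. The whole iPSC list of 54938 peaks thus held 24206 specific and 819 shared peaks found in none of the 6. Over that whole list, OySyNyK D1, D3 and D5 overlapped 15176, 19561 and 21353 peaks. The class is defined by absence from OSNK D5, which bears on the other OSNK lists too, so these shares do not compare the methods.

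The peaks to be lost after day 5 were looked for in the same earlier lists. Of the 75935 OSNK D5-specific peaks, 28.1% overlapped a MEF peak (95% interval 27.8 to 28.4), 59.6% an OSNK D1 peak (59.2 to 59.9) and 68.3% an OSNK D3 peak (68.0 to 68.7). In none of the 3 lists were 17176 of them, or 22.6% (95% interval 22.3 to 22.9), which are peaks first called at D5, against 21.5% of all OSNK D5 peaks. The most frequent history was presence at D1 and D3 without MEF, with 21638 peaks or 28.5% of the class, against 27.1% of the whole list. Presence in MEF, at D1 and at D3 followed with 17560 peaks (23.1%, against 25.6% of the list), and presence at D3 only with 11745 (15.5%, against 15.4%). Over all 92762 OSNK D5 peaks, 28925 were in MEF, 55688 at OSNK D1 and 64755 at OSNK D3. Most OSNK D5-specific peaks were thus absent from the MEF list, as were most peaks of the whole OSNK D5 list. Absence from the iPSC list defines the class.

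These histories differed in score and width. OSNK D5-specific peaks present in MEF, D1 and D3 had a median score of 102.8 and a median width of 739 bp. Those present at D1 and D3 without MEF had 92.3 and 672 bp, those at D3 only 77.5 and 625 bp, and those first called at D5 had 62.1 and 521 bp. Many of the peaks first called at D5 thus scored close to the lowest score of the lists, 50. The OySyNyK lists overlapped 53.2%, 55.9% and 39.7% of the OSNK D5-specific peaks at D1, D3 and D5. Over all 92762 OSNK D5 peaks they overlapped 51551, 55880 and 43308. In none of the other 6 lists were 10494 of the OSNK D5-specific peaks, or 13.8%, and 788 of the 16827 shared OSNK D5 peaks, or 4.68%.

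**Figure D2:**
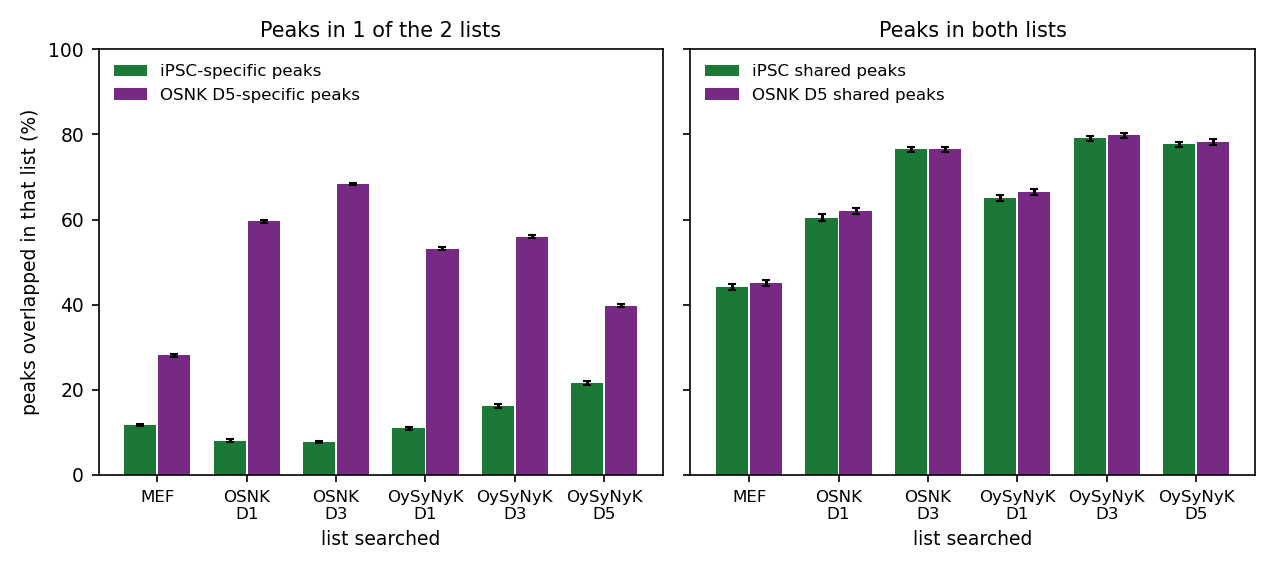
Percent of peaks overlapped (y axis) in each of the other 6 lists (x axis), for specific peaks (left) and shared peaks (right) of iPSC (green, left bar) and OSNK D5 (purple, right bar), with exact 95% intervals. At OSNK D3, 7.66% of iPSC-specific and 68.3% of OSNK D5-specific peaks were present, and 76.5% of the shared peaks of either list. Over the whole lists, 15875 of 54938 iPSC peaks and 64755 of 92762 OSNK D5 peaks were present there. Only the iPSC-specific class is defined by absence from OSNK D5, which also lowers its presence at OSNK D3, so the contrast follows in part from the classes.

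Turned round, the history of an OSNK D5 peak went with the share found in iPSC. Of the 23724 peaks present in MEF, D1 and D3, 26.0% had an iPSC peak (95% interval 25.4 to 26.5). The share was 14.0% of the 25153 peaks present at D1 and D3 without MEF (13.5 to 14.4), 18.03% of the 14329 at D3 only (17.4 to 18.7) and 13.9% of the 19957 first called at D5 (13.5 to 14.4). Peaks present at D1 and again at D5, but neither in MEF nor at D3, had the lowest share, 8.44% of 4398. The highest was that of the 1549 peaks in MEF and at D3 but not D1, with 39.0% (95% interval 36.6 to 41.5).

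The histories differed within score quartiles too. In the top quartile of the OSNK D5 list by score, 35.99% of peaks with a history in MEF, D1 and D3 were found in iPSC, 29.3% of those at D3 only, 24.7% of those first called at D5 (95% interval 21.1 to 28.7, 518 peaks) and 23.2% of those at D1 and D3 without MEF (22.3 to 24.1). In the lowest quartile the shares were 13.4%, 12.1%, 11.3% and 6.48% in the same order of histories. Peaks at D1 and D3 without MEF were thus the lowest of these 4 histories in each quartile, although in the top quartile their interval overlapped that of peaks first called at D5. With equal numbers of peaks, 17.7% of those at D1 and D3 without MEF and 18.2% of those first called at D5 were found in iPSC.

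**Figure D3:**
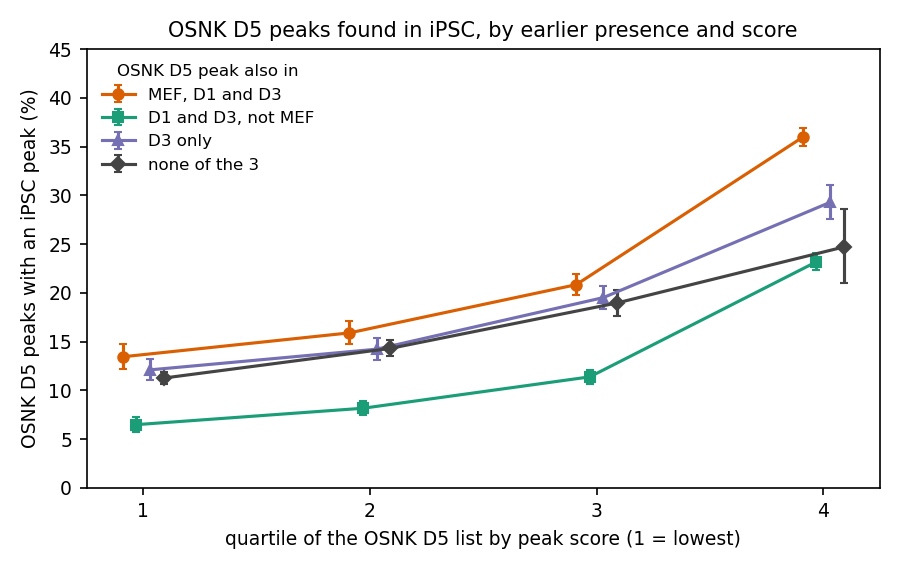
Percent of OSNK D5 peaks with an overlapping iPSC peak (y axis) by quartile of the OSNK D5 list ranked by score (x axis), for 4 histories of presence in MEF, OSNK D1 and OSNK D3, with exact 95% intervals. Peaks at D1 and D3 without MEF lie lowest in each quartile, from 6.48% in the lowest to 23.2% in the top quartile.

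Each stage of the series can be set against the same iPSC list, so the following values share that list. The percent of iPSC peaks without a counterpart was 78.3% for MEF, 75.8% for OSNK D1, 71.1% for OSNK D3 and 69.1% for OSNK D5. It was 72.4%, 64.4% and 61.1% for OySyNyK D1, D3 and D5. Over equal numbers of peaks the values were 81.3% for MEF, 84.4%, 77.9% and 76.9% for OSNK D1, D3 and D5, and 80.4%, 73.4% and 66.3% for OySyNyK D1, D3 and D5. In that setting OSNK D3 and OSNK D5 were 1 point apart, and more iPSC peaks were without a counterpart at OSNK D1 than in MEF. Over all peaks the order of OSNK D1 and MEF was the opposite. The cut kept 54938 of 116302 OSNK D1 peaks and 54938 of 65776 MEF peaks. Median widths of these full lists were 690 and 841 bp. How far the cut and the widths bear on the order was not tested. In the other direction, 82.6% of MEF peaks, 88.7%, 83.3% and 81.9% of OSNK D1, D3 and D5 peaks, and 70.1% of OySyNyK D5 peaks had no iPSC counterpart.

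Chromosomes contributed unequally, and the iPSC list stood apart on several autosomes. The number of iPSC peaks per OSNK D5 peak was 0.629 on the median autosome. Relative to that value, chromosome 12 had 1.72, chromosomes 13 and 16 had 0.295 and 0.291, chromosome 18 had 0.488, chromosome 6 had 0.613 and X had 0.468. The other 14 chromosomes lay between 0.752 and 1.21. The same ratio for the other 6 lists, each set against OSNK D5, lay between 0.837 and 1.17 on every autosome. On X these lists differed widely as well, with 2.01 in MEF, 2.19 and 1.20 at OSNK D1 and D3, and 1.62, 0.934 and 0.840 at OySyNyK D1, D3 and D5. At equal numbers of peaks, chromosomes 12, 13, 16 and 18 had 1.80, 0.312, 0.306 and 0.501, chromosome 6 had 0.667, and X had 0.788. X held 106 iPSC peaks and 360 OSNK D5 peaks.

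The share of OSNK D5 peaks that met an iPSC peak was taken on the same chromosomes. They were picked by their number of iPSC peaks per OSNK D5 peak. Shares unlike those elsewhere therefore follow in part from that choice and are not a separate result. On chromosome 13, 93.9% of the 4634 OSNK D5 peaks were OSNK D5-specific (95% interval 93.1 to 94.5), and on chromosome 16 93.5% of 3498 were (92.6 to 94.3). Chromosome 18 had 90.3%, chromosome 6 had 88.9% and X had 94.7%. The lowest share was that of chromosome 12, 69.8% of 4090 (95% interval 68.4 to 71.2), and the 14 other chromosomes lay between 77.1% and 85.3%. Among strong OSNK D5 peaks, those scoring 200 or more, 83.3% on chromosome 13, 81.0% on chromosome 16 and 37.8% on chromosome 12 had no iPSC peak, against 51.2% to 66.0% on those 14 chromosomes.

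The same share was taken over the iPSC peaks of each chromosome. The share of iPSC-specific peaks was 67.3% of 860 on chromosome 13, 64.1% of 640 on chromosome 16 and 72.0% of 4435 on chromosome 12, against 64.7% to 73.0% on the 14 chromosomes, so that chromosome 16 was just below their range. X was above that range with 82.1% of 106 (95% interval 73.4 to 88.8). Median iPSC scores were 63.5 on chromosome 13, 64.6 on chromosome 16 and 75.5 on chromosome 12, against 68.6 to 73.6 on the 14. Chromosomes 6 and 18 had iPSC medians of 66.0 and 66.4, below that range, and X had 69.8, inside it. Median OSNK D5 scores on chromosomes 13, 16, 12 and 18 were 79.2, 80.2, 81.1 and 80.65, inside the range of the 14, 79.2 to 85.7. On chromosome 6 and X they were 77.8 and 64.0, below the range, so the OSNK D5 list departed there too. What sets these chromosomes apart in the iPSC library was not tested. Chromosomes 13 and 16 held 7620 OSNK D5-specific peaks, 10.0% of the class. Of all OSNK D5 peaks, chromosome 13 held 5.00% and chromosome 16 held 3.77%. Without chromosomes 12, 13, 16, 18 and X, 69.0% of iPSC peaks and 80.8% of OSNK D5 peaks were specific. Chromosome 6, which was also picked out by its ratio, was kept in that setting.

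**Figure D4:**
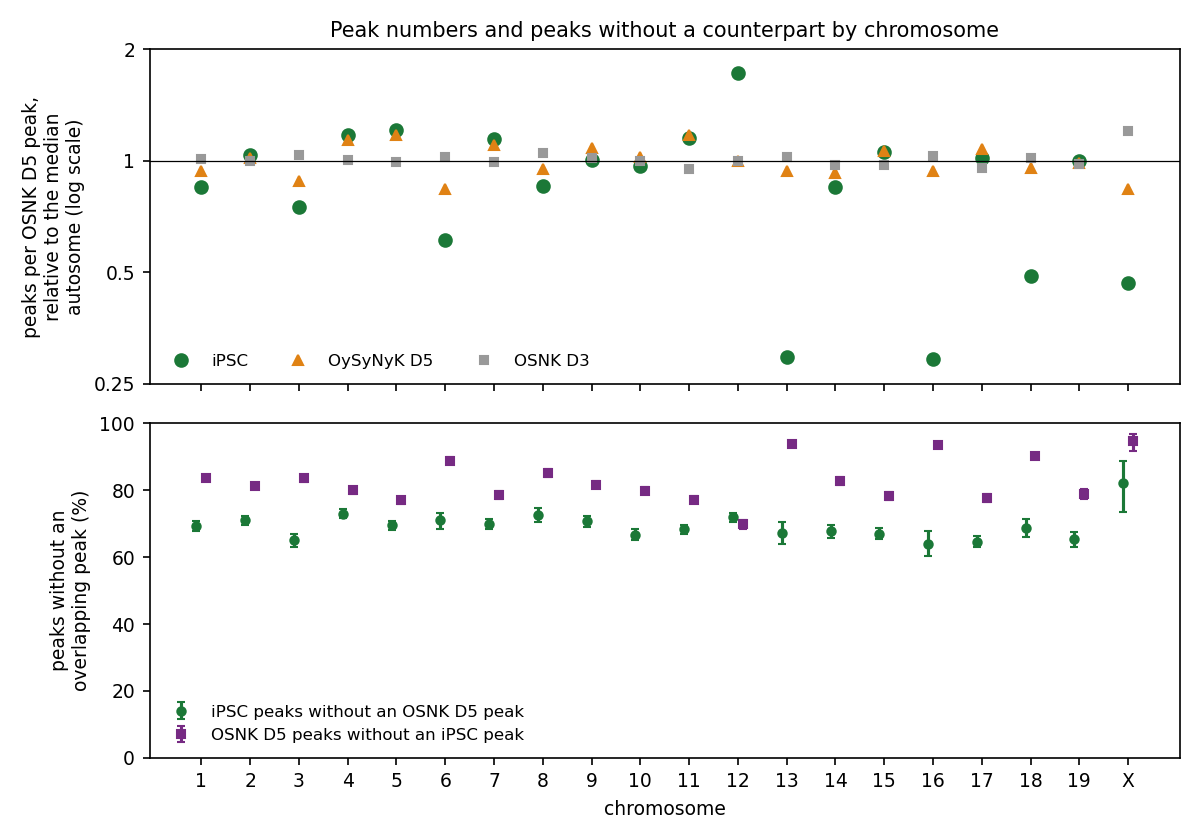
Top, peaks per OSNK D5 peak on each chromosome relative to the median autosome (log axis) for iPSC (circles), OySyNyK D5 (triangles) and OSNK D3 (squares). Bottom, percent of iPSC peaks (circles) and OSNK D5 peaks (squares) without a counterpart, with exact 95% intervals. In iPSC, chromosome 12 stands at 1.72 and chromosomes 13 and 16 at 0.295 and 0.291, while the other lists stay near 1 on the autosomes.

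Peak cover was then compared over regions of 100 kb, of which 16194 had a peak in either list. A region was called gained or lost when its covered percent differed by at least 5 points and 2 times. By this rule 499 regions (3.08%) were gained in iPSC and 2261 (14.0%) were lost, and no test stands behind either count. Equal numbers of peaks gave 811 gained and 1243 lost, and equal numbers of 500-bp peaks gave 362 and 440. Peaks of 500 bp without equal numbers gave 173 and 1336. Across the 16194 regions, which are not independent replicates, the covers of iPSC and OSNK D5 had a Pearson's r of 0.51 and a Spearman's rho of 0.51.

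Gained regions had a lower median cover on each OSNK day than in iPSC, and lost regions had their highest median cover at OSNK D3. OSNK D3 also covered the most of the 8 lists, 98.2 Mb. Its mean cover over all 16194 regions was the highest too, 6.00%, against 5.50% at OSNK D1 and 4.33% at OSNK D5. In the 499 gained regions, median cover was 3.08% in MEF, 3.29%, 3.32% and 2.29% at OSNK D1, D3 and D5, and 10.2% in iPSC. Over all 16194 regions the medians were 2.27%, 3.87%, 3.56%, 2.33% and 1.11% in the same order of lists. Median OySyNyK cover of the gained regions was 4.17%, 5.67% and 4.96% at D1, D3 and D5, against 2.84%, 2.39% and 1.62% over all regions. The gained regions were chosen for lower cover at OSNK D5 than in iPSC, so other lists tend to lie above OSNK D5 there. OySyNyK D5 was above OSNK D5 in 444 of them (89.0%) and in 29.7% of all 16194 regions, and MEF was above it in 295 (59.1%) and in 43.0% of all.

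In the 2261 lost regions, median cover was 6.98% in MEF, 11.95%, 14.9% and 11.1% at OSNK D1, D3 and D5, and 1.94% in iPSC. OSNK D3, whose peaks are the widest of the series by median, was above OSNK D5 in 2038 of these regions (90.1%), against 74.2% of all 16194. MEF was above OSNK D5 in 374 (16.5%), against 43.0% of all. Median cover at OySyNyK D5 was 7.14%. The choice of regions used the iPSC and OSNK D5 lists, and the median cover over all 16194 regions was 2.27% in MEF, 3.87%, 3.56% and 2.33% at OSNK D1, D3 and D5, and 1.11% in iPSC.

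**Figure D5:**
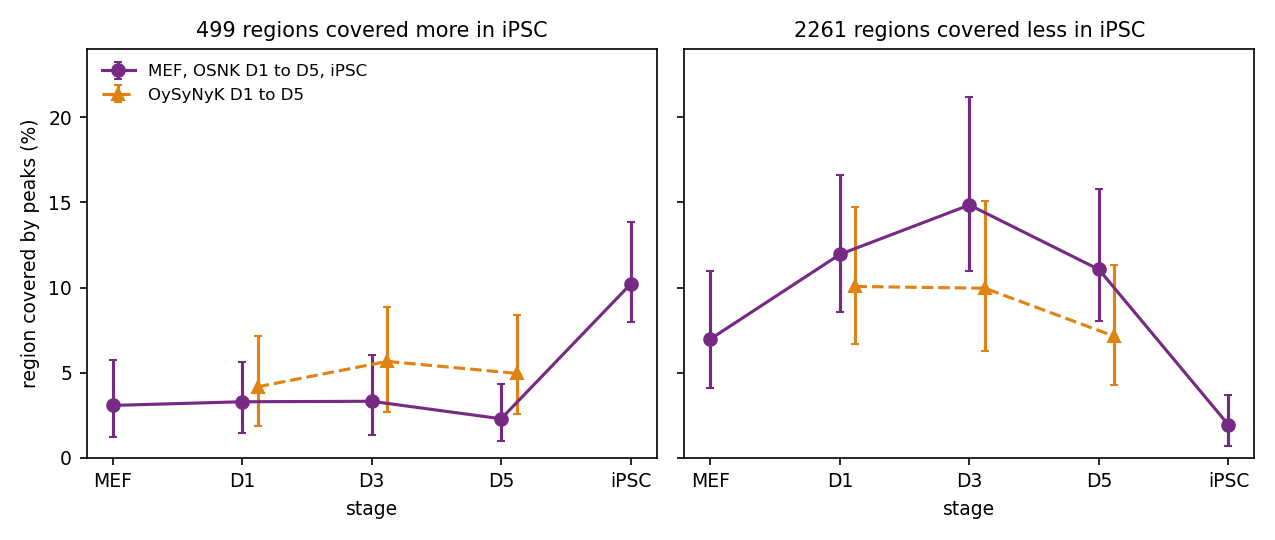
Percent of each 100-kb region covered by peaks (y axis) from MEF through D1, D3 and D5 to iPSC (x axis), for regions gained (left) and lost (right) in iPSC relative to OSNK D5. Points are medians, bars reach from the first to the third quartile over regions, circles follow OSNK and triangles OySyNyK. Median cover of lost regions was 14.9% at OSNK D3 and 1.94% in iPSC, against 3.56% and 1.11% over all 16194 regions. The choice of regions used the iPSC and OSNK D5 lists.

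Called regions lay partly side by side. The 499 gained regions formed 368 runs, of which 25 had 3 or more adjacent regions, and the 2261 lost regions formed 1407 runs, of which 201 had 3 or more. The longest gained run had 15 regions, at positions 106500001 to 108000000 of chromosome 12, and was picked out for its length after its values were seen. Its mean cover was 12.2% in iPSC, 2.27% at OSNK D5, 2.68% in MEF and 3.39% at OySyNyK D5. The longest lost run, picked out in the same way, had 11 regions, at positions 75300001 to 76400000 of chromosome 18. Mean cover there was 2.22% in iPSC and 18.4% at OSNK D5, against 12.5% in MEF and 23.3% at OSNK D3. Chromosome 12 held 72 of the gained regions and 42 of the lost, and chromosomes 13 and 16 held 309 of the lost regions and 1 of the gained. These 3 chromosomes had been picked by their number of iPSC peaks per OSNK D5 peak, so the counts follow in part from that choice. The number of regions on each chromosome was not set beside these counts, so they are not shares and are not a separate result.

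Single regions show the course at a locus. Coordinates are those of the lists' own mouse assembly, counted from 1. The region with the largest rise, positions 117900001 to 118000000 of chromosome 11, was covered to 39.9% by 27 peaks in iPSC and to 7.41% by 8 peaks at OSNK D5. Its cover was 7.50% in MEF, 3.18% at OSNK D1 and 6.23% at OSNK D3, so that the OSNK lists never exceeded MEF there, while OySyNyK D5 reached 30.3%. Peaks covered 42.4% of positions 109400001 to 109500000 of chromosome 12 in iPSC and 15.3% at OSNK D5, after 24.02% in MEF, 10.2% at OSNK D1 and 10.7% at OSNK D3. Here MEF lay between iPSC and every OSNK day. Cover of positions 116000001 to 116100000 of chromosome 5 was 35.98% in iPSC and 9.75% at OSNK D5, with 8.62% in MEF and 28.9% at OySyNyK D5. OSNK D1 and D3 had 11.2% and 12.3% there, so that in this region every OSNK day was above MEF. The regions starting at 90100001 on chromosome 1 and 149000001 on chromosome 4 differed by 23.2 and 22.4 points, and in both all OSNK days were below MEF, which had 11.8% and 11.9%.

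Loss was largest on chromosome 6 at positions 31000001 to 31100000, with 4.38% covered by 7 peaks in iPSC and 53.2% covered by 44 peaks at OSNK D5. MEF had 38.9% there and OSNK D3 68.0%. On chromosome 10, positions 74500001 to 74600000 had 6.63% in iPSC and 49.5% at OSNK D5, with 19.9% in MEF and 58.9% at OSNK D3. On chromosome 18, positions 76200001 to 76300000 had 3.59% in iPSC and 46.4% at OSNK D5, with 10.2% in MEF, 22.1% at OSNK D1 and 47.2% at OSNK D3. In both of these regions the cover at OSNK D5 was more than 2 times that in MEF. Positions 119800001 to 119900000 of chromosome 10 differed by -42.3 points and were already covered to 48.2% in MEF. On chromosome 4, positions 53100001 to 53200000 held no iPSC peak and 39 peaks at OSNK D5, which covered 37.96%. Cover there was 6.31% in MEF, 22.4% at OSNK D1 and 47.5% at OSNK D3, and 12.7% at OySyNyK D5. Among peaks scoring 100 or more, the differences of these 5 regions were between -39.7 and -27.0 points, and those of the 5 largest rises between 17.6 and 31.4 points.

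The highest-scoring peaks without a counterpart differed in what the other lists held. The top iPSC-specific peak, at 113410345 to 113416950 of chromosome 12, was 6606 bp wide with a score of 1927.61. It lay 1491 bp from the nearest OSNK D5 peak and overlapped peaks in MEF (score 194.2), at OSNK D1 (60.5) and at all 3 days of OySyNyK. Next came peaks at 75471225 to 75473539 and 120732290 to 120734982 of chromosome 1, with scores of 915.6 and 905.1. The first of them overlapped only a MEF peak, with a score of 52.2. The second was in MEF (70.2) and at OySyNyK D3 and D5 (151.9 and 383.0). A peak at 56906033 to 56909243 of chromosome 17 (873.3) was at OSNK D3 with a score of 51.7 and absent at OSNK D5. The fifth, at 53048454 to 53051050 of chromosome 7 (848.8), lay 184 bp from an OSNK D5 peak and overlapped a MEF peak (107.1). Of these 5 peaks, 4 were in MEF, and 11.8% of all iPSC-specific peaks were. The 5 were picked by score and were 2315 to 6606 bp wide, against a class median of 626 bp. A wide peak can touch another by its length alone, so these values do not compare like peaks.

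The 5 highest-scoring OSNK D5-specific peaks were each present in all of the other lists except iPSC. The first, at 91030532 to 91031647 of chromosome 7, had a score of 1223.66. It overlapped peaks scored 541.0 in MEF, 619.3 at OSNK D1 and 768.4 at OSNK D3, and lay 14380 bp from the nearest iPSC peak. On chromosome 2, the peak at 30984117 to 30987201 had a score of 977.4 and overlapped peaks scored 64.7 in MEF, 383.3 at OSNK D1 and 1468.15 at OSNK D3. The other 3, on chromosomes 13, 10 and 4, had scores of 983.8, 963.5 and 929.1 and lay between 1113 and 4450 bp from an iPSC peak. The shared pair with the highest lower score was on chromosome 5, at 110531218 to 110534630 in iPSC and 110530677 to 110534528 at OSNK D5, with scores of 833.7 and 1139.18. All 5 of the top shared pairs were present in every list of the series, the other 4 on chromosomes 17, 12, 8 and 10.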

How the data were processed

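5hmC-captured DNA of 8 mouse samples was sequenced, and 1 peak list per library was deposited, so peaks were called per sample. Per the submitters' processing notes, Bowtie and MACS were used. Their versions and settings, and whether a control was sequenced, are not stated there. Column 5 holds a score per peak as deposited, 50 or more in every list, which in MACS corresponds to a p-value of 1e-05 or lower. The builds named in the notes, hg18 and NCBI36, are human, whereas the lists hold mouse chromosomes. Peaks lay beyond the last gene of GRCm38 on 10 of 20 chromosomes, and from general knowledge of chromosome lengths the lists match mm9. No annotation or sequence of that assembly was used, so no genes or sequences are given and the planned marker loci were left out.

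Overlaps were computed with numpy 2.4.6, scipy 1.17.1 and pandas 2.3.3 under Python 3.11.15, and figures drawn with matplotlib 3.10.9. The code was tested on simulated lists, and all 64 ordered pairs of lists gave the counts of bedtools 2.31.1. Ties in equal-number lists were broken by position. Named were the 5 100-kb regions with the greatest rise, and the 5 with the greatest fall, in cover, the 5 highest-scoring specific peaks of each list, the 5 one-to-one shared pairs with the highest lower score, and chromosomes with a relative ratio below 0.67 or above 1.5. Alternatives were overlap over 50% or more of a peak's length, scores of 100 or more, equal numbers of peaks (54938, as in iPSC), 500-bp peaks, both of these together, merging within 1 kb, and leaving out chromosomes 12, 13, 16, 18 and X. The comparison, classes and rules were chosen with earlier results of these data known.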

Additional observations from a re-analysis of the deposited data

How the results depend on the processing

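The values below follow the order used in the report: iPSC peaks that were iPSC-specific, OSNK D5 peaks that were OSNK D5-specific, iPSC-specific peaks found in MEF, OSNK D1 or D3, OSNK D5-specific peaks found in MEF, and OSNK D5-specific peaks found in none of these 3, against 69.1%, 81.9%, 18.01%, 28.1% and 22.6%. When 50% or more of a peak's length had to be overlapped they were 72.6%, 85.5%, 16.8%, 25.6% and 23.4%. For peaks scoring 100 or more they were 75.9%, 90.5%, 16.2%, 29.2% and 18.9%. Equal numbers of peaks gave 76.9%, 77.5%, 15.4%, 30.8% and 24.8%, peaks of 500 bp gave 72.9%, 84.0%, 16.04%, 23.7% and 26.1%, and both together gave 80.2%, 80.3%, 13.2%, 25.3% and 29.8%. With peaks within 1 kb merged, iPSC-specific peaks were 68.0% and OSNK D5-specific peaks 79.6%, of which 28.6% were in MEF and 23.2% in none of the 3, while the share of iPSC-specific peaks found earlier stayed within its interval. Without chromosomes 12, 13, 16, 18 and X, OSNK D5-specific peaks were 80.8%, and the other 4 shares stayed within their intervals. Gained and lost regions of 100 kb, 499 and 2261 as reported, were 206 and 1320 for scores of 100 or more, 811 and 1243 with equal numbers, 173 and 1336 with 500-bp peaks, and 362 and 440 when both were applied. Peaks of 500 bp cover less of a region by construction. The 50% rule was not applied to cover. Of 488 values of 74 other results under these alternatives, 137 stayed within their interval or within 1.5 times of the reported value and 351 moved beyond it. Reversal of sign was counted only for the 10 differences in regional cover, and 0 of their 58 values reversed. These had been picked as the largest rises and falls, which leaves little room for a reversal. The order of histories could change too. Of OSNK D5 peaks at D1 and D3 without MEF 14.0% were found in iPSC, and of those first called at D5 13.9%. The order was reversed under the 50% rule (10.5% and 12.5%), scores of 100 or more, equal numbers, 500-bp peaks and both together. It held with peaks merged and with the chromosomes left out. No paired analysis was possible because each group has 1 library. Depth was unknown, so how much of each difference goes with sequencing effort could not be measured.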
